A study of Salix viminalis with 12 samples.

Results

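Trehalose metabolism in the roots of *Salix viminalis* (basket willow) is described here through 10 Arabidopsis genes. They are the class I trehalose-6-phosphate synthase TPS1, the 7 class II synthases TPS5 to TPS11, the trehalose-6-phosphate phosphatase TPPA and the trehalase TRE1. They were found in the annotation of a root transcriptome assembled without a genome, in which each contig (an assembled coding sequence) may carry the code of an Arabidopsis gene model. A contig was taken when its code, without the suffix of the gene model, was that of one of the 10 genes. This gave 47 of the 86843 contigs of the assembly, on 8 of the 10 genes.

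The reads came from 12 root libraries, 3 from each of 4 groups of plants grown from cuttings of 1 individual. In the MC group the soil had received Cd (1.5 ppm), Cu (175 ppm), Ni (30 ppm) and Zn (500 ppm), and 40 days on this soil were followed by 4 weeks of cold. MT plants grew in the same metal soil at temperate conditions, CC plants in control soil with the cold period, and CT plants in control soil at temperate conditions. The growth protocol gives 7/5 °C (day/night) for the cold and 23/20 °C for the temperate plants, and the labels of the libraries name 4 °C and 22 °C. The assembly pooled all libraries. The annotation has 5 columns of names and text and 0 columns with a value per library, so it shows no sequencing depth. Neither a level of a trehalose gene nor a difference between MC, MT, CC and CT was measured here. The root label could not be checked against marker genes for the same reason.

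Trehalose is a disaccharide of glucose. Trehalose-6-phosphate synthase joins UDP-glucose and glucose 6-phosphate to trehalose 6-phosphate, the phosphatase removes the phosphate, and trehalase splits trehalose into glucose. In plants, trehalose 6-phosphate follows the sucrose level and acts as a signal of sugar supply, partly by restraining the protein kinase SnRK1, which is active when energy is scarce. In Arabidopsis, TPS1 is the main active synthase, whereas the class II proteins carry a synthase-like and a phosphatase-like domain and are mostly thought to have a regulatory role. Trehalose has been linked to tolerance of frost and of other stresses.

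The number of contigs per gene counts assembled sequences listed under the code of that gene. Contigs were annotated by their best match in the transcriptome of *S. purpurea*, so the code need not be that of their own nearest Arabidopsis gene. It may include isoforms, fragments and separate willow genes, and it is no measure of expression. Each count has no replicate and no error, and the counts were compared as a description with no test.

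TPS1 and TRE1 had the most contigs, with 11 and 10, and the class II synthases with contigs had 3 to 7 each. TPPA had 3 contigs. The class I synthase thus held 23.4% of the 47 contigs with 1 gene, the class II synthases 48.9% with 5 genes, the trehalase 21.3% and the phosphatase 6.38%. TPS8 (AT1G70290) and TPS10 (AT1G60140) had 0 contigs, so that the class II group was represented by 5 of its 7 genes. A count of 0 says that no contig was listed under that code, and does not show that willow roots lack a gene of that kind. The annotation lists no gene without a contig, so the share of all Arabidopsis genes that had contigs was not available for comparison.

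**Figure D1:**
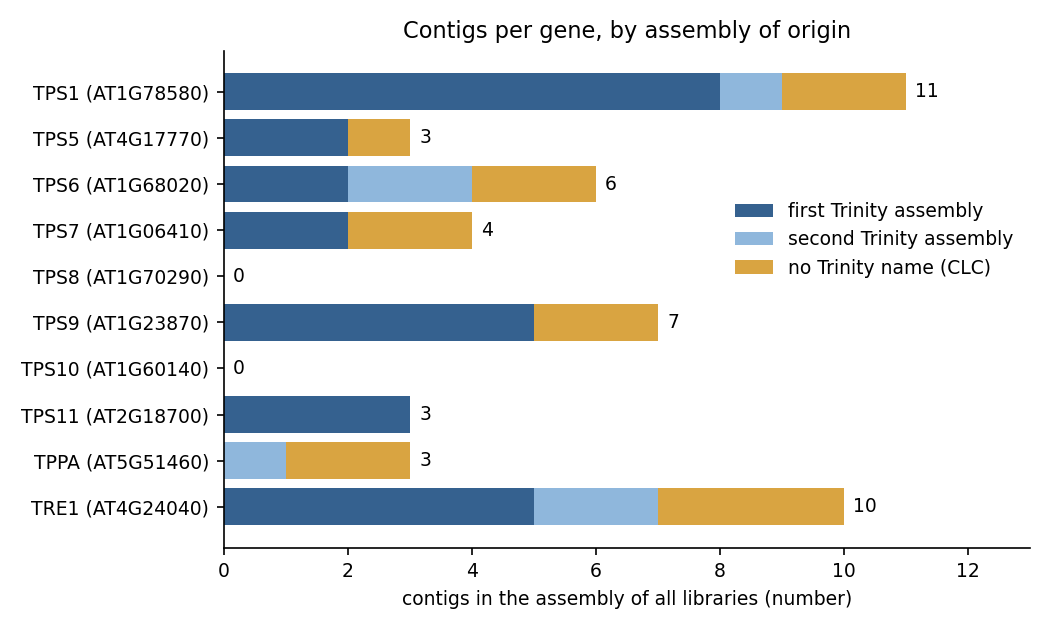
Number of contigs of each of the 10 genes in the assembly of all 12 libraries, with the class I synthase at the top, then class II synthases, phosphatase and trehalase. Colours split each bar by the assembly in which the contig was built, and the number at its end is the total: TPS1 reached 11 and TRE1 10, while TPS8 and TPS10 stood at 0.

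For TPS1 (AT1G78580), the class I enzyme that makes trehalose 6-phosphate, all 11 contigs were described as trehalose-6-phosphate synthase, and they lay on 11 parent transcripts. Among them, 8 came from the first Trinity assembly, 1 from the second and 2 carried no Trinity name, which marks contigs of the CLC assembler by elimination. A Trinity gene is a group of transcripts that Trinity assigned to the same locus, and names with the same assembly and DN number were taken as 1 component. The assemblies were merged and similar sequences collapsed before the annotation. The names of the first and the second Trinity assembly differ, so a locus with contigs kept from both counts more than once. The 9 Trinity contigs of TPS1 lay in 7 Trinity genes of 7 components. A single Trinity gene, V1_DN100880_c2_g1, held 3 of them as separate isoforms, and the other 6 Trinity genes held 1 contig each. The sequences listed under TPS1 were thus mostly spread over separate Trinity genes rather than grouped as isoforms of a single one.

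The class II synthases with contigs are described in the order of their counts, from 7 to 3. TPS9 (AT1G23870) had 7 contigs, of which 5 came from the first Trinity assembly and 2 had no Trinity name. Its 5 Trinity contigs lay in 5 Trinity genes of 5 components, so that no isoforms of the same Trinity gene were listed. TPS6 (AT1G68020) had 6 contigs, with 2 from each of the 3 sources, and was the class II gene with contigs from all of them. Its 4 Trinity contigs lay in 4 components. All 6 carried the second gene model of TPS6 and were described as a UDP-glycosyltransferase/trehalose-phosphatase family protein, a name for the synthase-like and phosphatase-like domains of class II proteins.

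TPS7 (AT1G06410) had 4 contigs, 2 of the first Trinity assembly and 2 without a Trinity name. Its Trinity contigs lay in 2 Trinity genes of the same component, V1_DN110409. TPS5 (AT4G17770) had 3 contigs, of which 2 were isoforms of a single Trinity gene and 1 had no Trinity name. TPS11 (AT2G18700) also had 3 contigs, all from the first Trinity assembly, in 3 Trinity genes of 2 components. It was the only 1 of the 8 genes with no contig kept from the CLC assembler, which does not show that this assembler built none before merging.

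TPPA (AT5G51460), which removes the phosphate from trehalose 6-phosphate, had 3 contigs, of which 1 came from the second Trinity assembly and 2 had no Trinity name. It was the only 1 of the 8 genes with no contig kept from the first Trinity assembly, the source of 27 of the 47 contigs. This does not show that the first Trinity assembly lacked TPPA before merging. All 3 carried the second gene model of TPPA. TRE1 (AT4G24040), which splits trehalose, had 10 contigs, with 5 from the first Trinity assembly, 2 from the second and 3 without a Trinity name. Its 7 Trinity contigs lay in 5 Trinity genes of 5 components. Both Trinity assemblies held a Trinity gene with 2 isoforms of TRE1, V1_DN112009_c1_g1 and V2_DN112076_c0_g1.

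**Figure D2:**
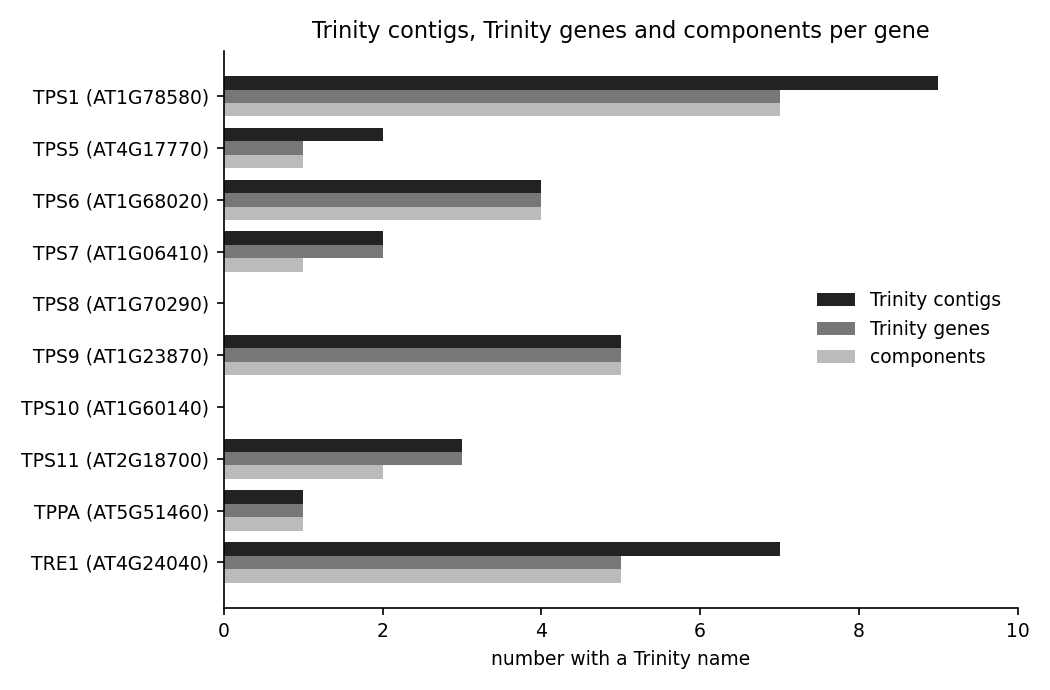
Contigs with a Trinity name, Trinity genes and components (all as numbers) for each of the 10 genes, in the same order as in the plot by assembly. TPS9 and TPS6 had as many Trinity genes as Trinity contigs, with 5 and 4, whereas TPS1 had 9 contigs in 7 Trinity genes and TRE1 had 7 in 5.

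Set against the class II synthases, TPS1 had 11 contigs, while their 5 genes with contigs had 3 to 7 and a median of 4. This compares single genes. No other class I code had a contig, so all class I contigs lay under TPS1, while the class II contigs were divided among 5 codes and numbered 23. Over all 7 class II genes, with TPS8 and TPS10 at 0, the median was 3. TPS1 also had more Trinity genes, 7 against 1 to 5 (median 3), and more components, 7 against 1 to 5 (median 2). These numbers add up both Trinity assemblies, in which the same locus may be named separately, so they are no numbers of separate loci. The higher count of TPS1 came from the first Trinity assembly, with 8 contigs against 2 to 5 for the class II genes. In the second Trinity assembly TPS1 had 1 contig, while the class II genes had 0 to 2, and 1 of the 5, TPS6, had more than TPS1. Among contigs without a Trinity name TPS1 had 2, and 3 of the 5 class II genes, TPS6, TPS7 and TPS9, had as many. The order of TPS1 above each class II gene therefore held for the contigs kept from the first Trinity assembly and not for the other sources. All sources were counted after merging, so a contig kept from one may stand for similar sequences of another. They are no independent counts. No test was made, since each gene gives a single count. TRE1 had more contigs than any class II gene in total, and TPPA as few as TPS5 and TPS11.

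The codes of the annotation belonged to 13764 Arabidopsis genes, with a median of 3 contigs per gene and quartiles of 2 and 5. The 8 trehalose genes with contigs had a median of 5, and all 10 a median of 3.5. The medians of 3 and 5 cover only genes with contigs. The median of 3.5 is not on the same base, since it includes TPS8 and TPS10, which had no contig. All 8 had at least 3 contigs, which 56.8% of the 13764 genes also reached. TPS1 and TRE1 were the 2 genes with 10 or more contigs, a number reached by 8.74% of all genes. As many contigs as TPS1 or more were listed for 6.89% of all genes, as many as TPS9 for 17.7%, as many as TPS6 for 23.3% and as many as TPS7 for 41.5%. The 47 contigs made up 0.0732% of the 64173 contigs with a code.

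**Figure D3:**
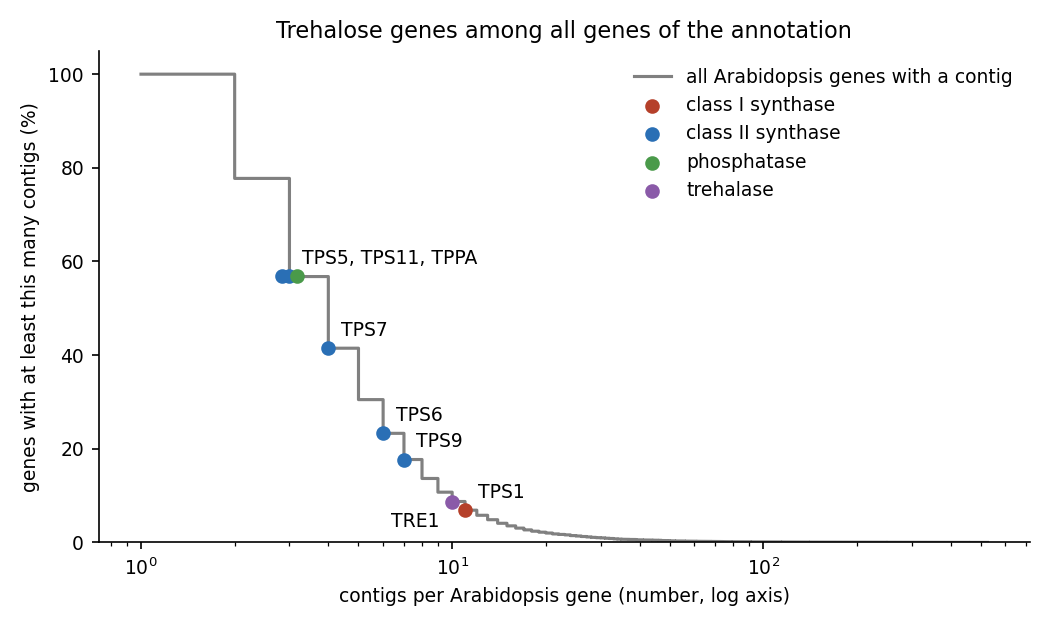
Share of the 13764 Arabidopsis genes of the annotation (%) that had at least a given number of contigs (log axis), with the 8 trehalose genes that had contigs as coloured points on the line. Genes with the same count are spread a little sideways: TPS5, TPS11 and TPPA sit at 3 contigs (56.8%) and TPS1 at 11 contigs (6.89%).

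The 47 contigs were compared with all contigs that had a code. The first Trinity assembly supplied 57.4% of them, against 52.9% of all contigs with a code, the second 12.8% against 21.4%, and 29.8% against 25.8% had no Trinity name. All 47 had a gene symbol and a description, whereas 46.0% of all contigs with a code had a symbol and 92.7% a description. All contigs of a gene carried the same symbol and description, so the 47 contigs repeat those of 8 genes. The 10 genes were chosen as known genes of the pathway, so this contrast is no independent result. Of the 33 Trinity contigs of the trehalose genes, 9 (27.3%) shared their Trinity gene with another contig of the same Arabidopsis gene, in 4 Trinity genes of TPS1, TPS5 and TRE1. Over all Trinity contigs with a code this share was 49.0%. Both are shares of contigs, so genes with many contigs weigh more. The highest count was 525 contigs over all genes and 11 among the trehalose genes. No test of this difference in shares was made.

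The names also show what else was assembled beside the trehalose sequences. All 47 contigs lay on 47 different parent transcripts. The 2 contigs of TPS9 named T_V1_DN89882_c0_g1_i2.2 and T_V1_DN110610_c1_g2_i4.3 were numbered as the second and the third coding sequence of their transcript, and the earlier ones were not listed. A number above 1 was found for 4.26% of the 47 contigs, against 11.8% of all contigs with a code. A TPPA transcript of the CLC assembler was the only 1 of the 47 that carried another listed coding sequence, which had no code. In the 26 components of the trehalose genes, 11 other contigs were listed, 8 of them without a code. There were 4 beside TPS11, all without a code, 3 beside TPPA, 2 beside TPS6 and 1 each beside TPS1 and TRE1.

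Of the 3 neighbours with a code, 2 belonged to another trehalose-6-phosphate phosphatase. The component of TPPA in the second Trinity assembly, V2_DN103483, also held 2 contigs of TPPJ (AT5G65140), in other Trinity genes. Sequences of both phosphatases were thus joined by Trinity at the level of the component. The third neighbour was a contig of AT5G66560, described as a phototropic-responsive NPH3 family protein, in a component of TPS6. No contig of a synthase shared a component with a contig of another synthase, of TPPA or of TRE1.

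The remaining genes of both enzyme families in Arabidopsis and the genes around them were taken from fixed lists. Of the 3 other class I synthases, TPS2 (AT1G16980), TPS3 (AT1G17000) and TPS4 (AT4G27550), 0 had a contig, so that TPS1 was the only 1 of 4 class I codes in the annotation. Of the 9 other phosphatases, 4 had contigs. TPPJ had 12, TPPD (AT1G35910) 5, TPPG (AT4G22590) 4 and TPPB (AT1G78090) 2, and TPPC, TPPE, TPPF, TPPH and TPPI had 0. With TPPA, 5 of 10 phosphatases had 26 contigs in all, and TPPJ, with 4 times the contigs of TPPA, had the most. Over the whole families, 12 of 22 genes had contigs, which numbered 70. Without the share of all Arabidopsis genes that had contigs, such counts do not show whether a family was covered more or less than others.

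SnRK1, the kinase restrained by trehalose 6-phosphate, was covered by 7 of 8 listed genes with 62 contigs. Its catalytic subunit KIN10 (AT3G01090) had 7 contigs and the alternative subunit KIN11 (AT3G29160) had 0. The regulatory subunits SNF4 (AT1G09020) and AKINBETA1 (AT5G21170) had 16 and 15 contigs, AKINBETA2 (AT4G16360) had 9 and AKINBETA3 (AT2G28060) had 2. The kinases GRIK2 (AT5G60550) and GRIK1 (AT3G45240), which activate SnRK1, had 11 and 2. For the supply of UDP-glucose, a substrate of the synthases, only UDP-glucose pyrophosphorylases were listed. They were UGP2 (AT5G17310), with 16 contigs, and UGP1 (AT3G03250), with 3.

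Sucrose synthesis runs through the same kind of steps, a synthase and a phosphatase acting on a sugar phosphate. Of its 6 listed genes, 3 had contigs, 16 in all. They were the sucrose-phosphate synthases AT5G20280 with 8 and AT4G10120 with 2, and the sucrose-phosphate phosphatase AT2G35840 with 6. In both pathways, the annotation used some codes of a family and left others at 0.

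**Figure D4:**
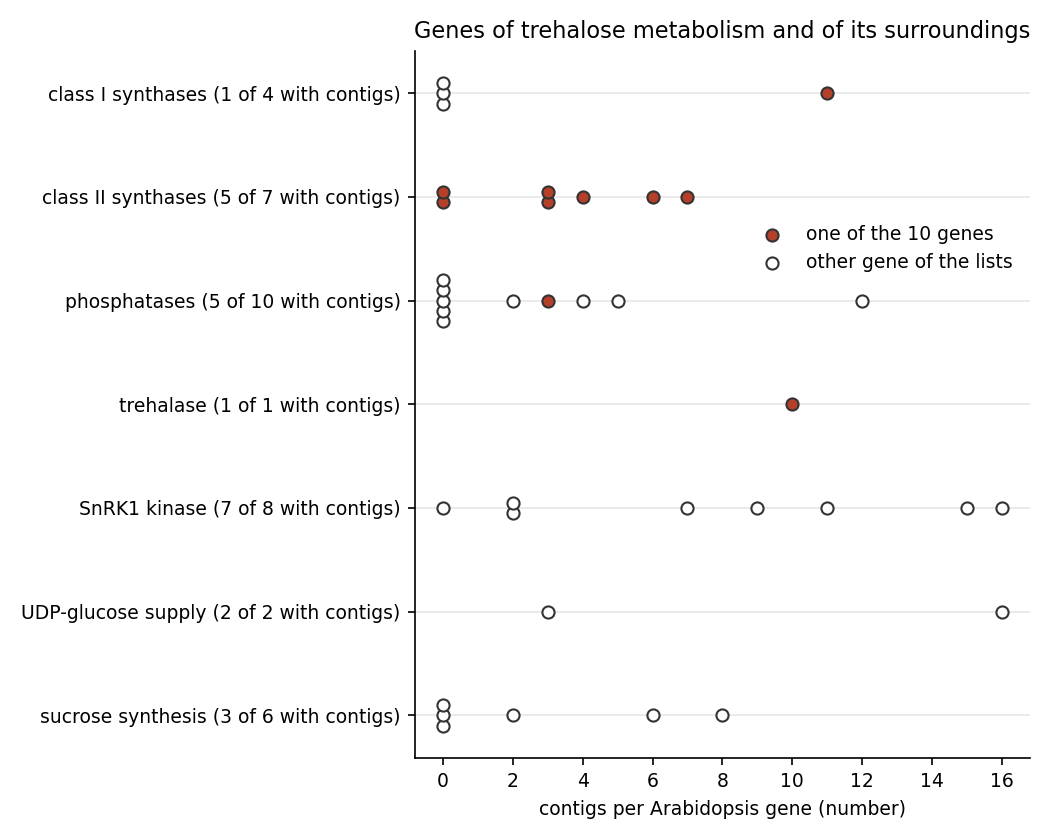
Contigs per Arabidopsis gene (number) for the class I and class II synthases, phosphatases and trehalase, and for SnRK1, UDP-glucose supply and sucrose synthesis, each point being a gene. Filled points are the 10 genes described here and open points the other listed genes; TPS1 was the only class I synthase above 0, and TPPJ lay above TPPA, with 12 against 3 contigs.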

How the data were processed

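Total RNA of roots was sequenced by the authors in 12 libraries. After trimming, contigs were built by Trinity (version not given in the sources used here) and by version 11.0.1 of the CLC Genomics Workbench. These assemblies were merged by cd-hit-est, restricted to coding sequences by TransDecoder (v. 5.5.0) and annotated by the best BLAST match in the *S. purpurea* transcriptome (Phytozome v. 12.1). How far similar sequences were collapsed sets the number of contigs. The deposited annotation holds names and text, and no measured unit. Codes were read without their suffix, and contigs, parent transcripts, Trinity genes and components were counted per Arabidopsis gene using pandas (v. 2.3.3) under Python (v. 3.11.15) and plotted in matplotlib (v. 3.10.9). The counting of contigs and of Trinity genes was tested on simulated data of 13764 genes, of which 0 were counted wrongly. The simulated contigs carried only first gene models and first coding sequences, and no component was shared between genes. Other cases, which the real names hold, were not tested. The counts of parent transcripts, of components and by assembly were not tested in this way. The genes named are the 10 genes and all genes of the lists around them, chosen with earlier results of these data known. The symbols of genes without a symbol in the annotation, or with 0 contigs, are the usual Arabidopsis symbols. No sequences, lengths or willow coordinates were used. The planned comparisons of MC, MT and CC with CT were not run. The alternatives were other units of counting, the contigs of the merged set split by assembly of origin, and a search by description.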

Additional observations from a re-analysis of the deposited data

How the results depend on the processing

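Counting parent transcripts changed none of the counts of the 10 genes and of their groups, and a search for trehalose or trehalase in the description found 46 contigs in place of 47. Of these, 44 belonged to the 10 genes: the 3 contigs of TPPA were missed, leaving no contig of the phosphatase, and the 2 of TPPB were gained. With Trinity genes in place of contigs, which leaves out CLC contigs by construction, the total was 28, with 7 for the class I synthase, 15 for the class II synthases, 1 for the phosphatase and 5 for trehalase. The 47 contigs of the merged set were also split by the assembly that their names give. Each part is smaller than the whole by construction and is no count of an assembly before merging. For the first Trinity assembly the total was 27, with 8 for class I, 14 for class II (median 2), 0 for the phosphatase and 5 for trehalase. For the second it was 6, with 1, 2 (median 0), 1 and 2 contigs in the same order. Without a Trinity name it was 14, with 2, 7 (median 2), 2 and 3. Over the 24 genes of all lists with contigs, the count stayed within 1.5 times for 24 genes with parent transcripts and 4 with Trinity genes. With the contigs kept from a single source it did so for 11 genes (first Trinity assembly), 1 (second) and 2 (no Trinity name).

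No paired analysis was possible because the annotation holds no value per library, and for the same reason no replicate was left out. Sequence length, the quality of each match and depth were not available from the columns used, so fragments, isoforms and separate willow genes cannot be told apart.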

Other observations

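Symbols and descriptions alone did not lead to the same genes as the codes. The search for TPS symbols allowed the prefix AT, and a digit, a hyphen or a letter from A to C had to follow. Such symbols were listed for 11 genes with 48 contigs. Of these, 6 genes with 34 contigs were trehalose-6-phosphate synthases, and 5 genes with 14 contigs were terpene synthases, enzymes of an unrelated pathway. Of 3 genes with a symbol that starts with TPP or ATTPP, TPP2 (AT4G20850, 4 contigs) was described as a tripeptidyl peptidase, a protease. These genes were noticed after their values were seen.

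Most phosphatase contigs were hidden under a general description. Of the 26 contigs of the 5 trehalose-6-phosphate phosphatases, 24 contigs of 4 genes, TPPA among them, were described as haloacid dehalogenase-like hydrolase superfamily proteins. This description was shared by 29 genes with 128 contigs. The 2 contigs of TPPB were the only ones of a phosphatase whose description names trehalose, and 21 contigs of 3 phosphatase genes, TPPD, TPPG and TPPJ, had no symbol.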
